A study of Mus musculus with 6 samples.

Results

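The genes described here are 10 transcription factors that help to define endothelial cells: the ETS factors Erg, Fli1, Ets1, Ets2, Elk3 and Etv6, the SOXF factors Sox7, Sox17 and Sox18, and the zinc finger factor Gata2. They were taken by gene name from a deposited table of 55232 annotated features, in which all 10 had a row. The table holds RNA-seq read counts of untreated mouse pulmonary microvascular endothelial cells (MPVECs), labelled as a cell line, after 12 h of co-culture. In the repletion group (3 libraries) the partners were TCMK-1 cells, which come from mouse kidney tubular epithelium, that had been depleted of ATP and then repleted. In the control group (3 libraries) the partners were untreated TCMK-1 cells. The endothelial cells were collected from the lower chamber, and no treatment other than the co-culture is labelled for them. How ATP was depleted is not given in the sources used here. Whether the 3 libraries of each group are separate cultures is not labelled. The spread behind every p-value below may therefore be technical.

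ETS factors bind DNA at a GGAA core through a shared winged helix domain, and several of them sit together on the enhancers of endothelial genes. SOXF factors bind through an HMG box, and the members of this subfamily can stand in for each other in arteries, veins and lymphatic vessels. GATA2 binds GATA motifs, is known from blood stem cells and endothelium, and often shares enhancers with ETS factors and with the TAL1 complex.

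Before their values, the DNA in front of the start sites is shown for the members held by the RefSeq promoter table (build GRCm38.p6), because members that rose and a member that missed the threshold can be read side by side there. The table held 5 of the 10 members, with 8 start sites between them. Each line gives the 250 bases upstream of a start, 5′ to 3′ on the strand of the gene. Capitals mark GGAA, the ETS core, AGATAA or TGATAA for GATA factors, and ACAAT or ACAAAG for SOX factors, each on either strand.
Elk3, chr10:93311160-93311409, minus strand: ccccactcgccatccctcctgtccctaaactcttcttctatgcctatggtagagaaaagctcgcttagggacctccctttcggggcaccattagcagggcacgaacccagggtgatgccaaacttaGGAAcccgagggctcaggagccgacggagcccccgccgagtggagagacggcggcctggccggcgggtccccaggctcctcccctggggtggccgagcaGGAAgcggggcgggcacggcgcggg
Erg, most upstream start, chr16:95586594-95586843, minus strand: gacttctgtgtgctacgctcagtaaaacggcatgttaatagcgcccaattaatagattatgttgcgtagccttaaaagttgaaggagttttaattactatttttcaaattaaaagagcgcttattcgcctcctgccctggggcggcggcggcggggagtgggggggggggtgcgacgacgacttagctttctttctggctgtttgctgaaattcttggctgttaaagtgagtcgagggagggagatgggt
Erg, most downstream start, chr16:95459349-95459598, minus strand: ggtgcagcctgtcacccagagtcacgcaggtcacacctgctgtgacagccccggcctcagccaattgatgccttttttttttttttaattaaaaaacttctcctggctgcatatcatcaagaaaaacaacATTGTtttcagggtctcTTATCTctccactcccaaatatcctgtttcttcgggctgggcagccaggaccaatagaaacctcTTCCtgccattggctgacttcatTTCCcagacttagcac
Etv6, chr6:134035450-134035699, plus strand: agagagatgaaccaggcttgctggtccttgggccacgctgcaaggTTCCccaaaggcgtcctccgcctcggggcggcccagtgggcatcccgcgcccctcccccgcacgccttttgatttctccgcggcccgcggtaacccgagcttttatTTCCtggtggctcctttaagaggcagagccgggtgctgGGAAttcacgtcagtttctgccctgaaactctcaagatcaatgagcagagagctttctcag
Gata2, upstream start, chr6:88193641-88193890, plus strand: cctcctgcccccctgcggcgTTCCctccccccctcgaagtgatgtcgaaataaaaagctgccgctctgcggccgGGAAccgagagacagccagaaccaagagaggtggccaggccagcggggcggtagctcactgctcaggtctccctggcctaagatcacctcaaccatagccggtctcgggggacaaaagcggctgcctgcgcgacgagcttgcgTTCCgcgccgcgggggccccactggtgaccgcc
Ets2, chr16:95702157-95702406, plus strand: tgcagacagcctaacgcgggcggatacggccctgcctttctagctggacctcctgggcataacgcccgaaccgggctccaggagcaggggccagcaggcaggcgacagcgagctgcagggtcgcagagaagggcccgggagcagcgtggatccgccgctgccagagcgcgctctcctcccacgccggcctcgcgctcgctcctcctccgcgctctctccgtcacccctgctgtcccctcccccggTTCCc
The ETS core is short, and 93.4% of all 32851 windows of this length in the table held it, with a median of 3 matches. Elk3 had 2 matches, Etv6 had 3, the upstream start of Gata2 had 3 and Ets2 had 1. The most upstream start of Erg had 0 matches, while its most downstream start had 2, next to 1 GATA motif and 1 SOX motif. Among the starts not printed above, the middle start of Erg had 4 ETS matches and the downstream start of Gata2 had 1. Of all windows, 16.6% held such a GATA motif and 38.8% such a SOX motif. The longer ETS motif CGGAAG, found in 13.6% of all windows, was in none of the 8 windows of the members. A match is a description of letters, and the counts per gene do not tell which start was used.

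The libraries held 15582349 to 17817618 counts. The filter on low counts left 13804 features to test. Protein-coding mitochondrial transcripts took 2.21% to 2.775% of the counts in repletion libraries and 1.61% to 1.68% in control libraries, and their part in the results below was not tested. The labelled cell type was checked with 16 endothelial markers, whose summed level was 2696 to 3112 counts-per-million (CPM) of the unscaled total in repletion libraries and 2486 to 2770 CPM in control libraries (exact permutation p = 0.3, two-sided, where 3 against 3 cannot go below 0.1). None of the 16 was at 0 in every library, but Cldn5, the claudin of endothelial tight junctions, had 3 counts in 1 repletion library and 0 counts in the others. Of the 15 that could be tested, 6 rose and 2 fell by the rule given below, against 20.5% and 19.2% of all features. The summed level therefore does not stand for the single markers. Of 16 kidney tubular markers, Epcam, Krt18 and Slc34a1 were at 0 in every library, and the sum was 16.8 to 21.3 CPM in repletion libraries and 15.0 to 18.7 CPM in control libraries. Among those with reads in every library, Pax2 had 65 to 173 counts and Aqp1 had 100 to 171 counts. The 11 megakaryocyte and mast cell markers, cells that share Fli1, Erg or Gata2 with endothelium, summed to 31.5 to 42.3 CPM in repletion libraries and 41.6 to 44.0 CPM in control libraries, with 4 markers at 0. Of the 5 of these that could be tested, 1 rose and 1 fell by the same rule, 20% each, near the 20.5% and 19.2% of all features. Kit, the largest part, fell (361, 277 and 298 counts in repletion, 478, 526 and 584 in control libraries). Gp1ba rose at low counts (44, 19 and 43 in repletion, 0, 0 and 6 in control libraries). The 12 leukocyte markers summed to 224 to 311 CPM in repletion libraries and 378 to 417 CPM in control libraries (exact permutation p = 0.1, the smallest possible), nearly all of it Cd68, a lysosomal glycoprotein, with Itgam, Cd3e and Tyrobp at 0. Fibroblast and mural markers (12 genes, 19.6 to 30.3 CPM in repletion and 24.2 to 25.6 CPM in control libraries, Lum and Tcf21 at 0) and lung epithelial markers (10 genes, 58.7 to 69.6 CPM in repletion and 54.6 to 74.7 CPM in control libraries, 5 of them including Sftpc at 0) overlapped between the groups. Nearly all of the lung epithelial sum was Abca3, with 854 to 1304 counts per library.

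Most of the endothelial transcription factors were higher after co-culture with repleted TCMK-1 cells. Of the 9 members that could be tested, 8 rose and 0 fell, and Ets2 missed the threshold (edgeR's quasi-likelihood test, Benjamini-Hochberg adjusted p under 0.05 over 13804 features). Of all tested features 20.5% were higher by the same rule and 19.2% were lower, 39.7% in all. Of the 896 tested features that carry a transcription factor family in the deposited table, 24.2% were higher and 18.6% were lower. The members, and the gene lists used below, were chosen with earlier results of these data known. The shares of all features are therefore no independent comparison for them. No member fell at an unadjusted p under 0.05 with edgeR, and DESeq2 and limma-voom also called 0 members lower. The median log2 fold change of the 9 members was 0.81, against 0.00 over all tested features. Fli1, Sox18, Elk3 and Erg rose at least 2-fold, which 7.53% of tested features did. In 8 members every repletion library lay above every control library, as for 25.0% of tested features, against 25.4% with every repletion library below, and in Sox7 the groups overlapped. These are whole cultures, in which more or fewer cells of a type and more or less RNA per cell cannot be told apart.

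**Figure D1:**
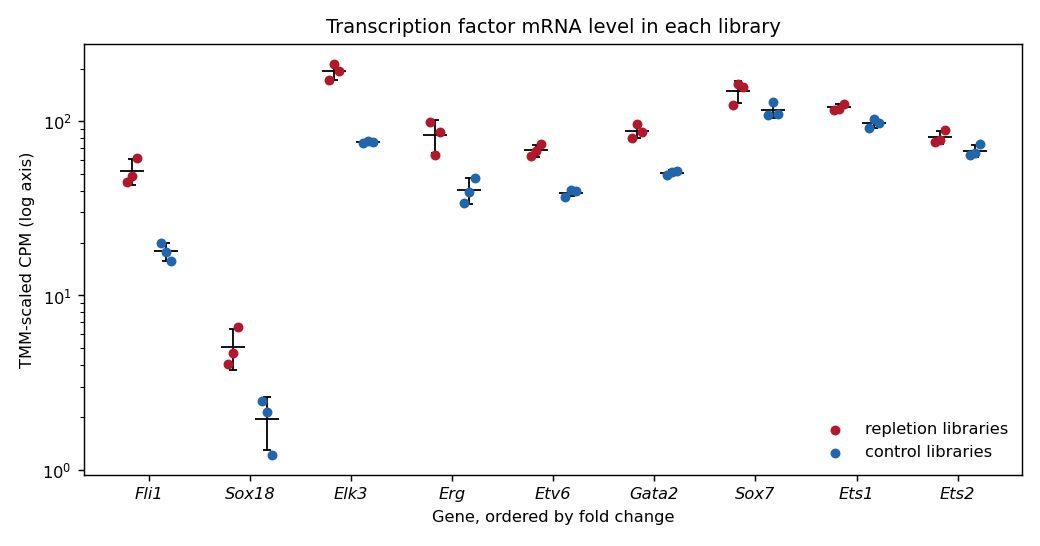
Level of each member in each library, in TMM-scaled CPM, with repletion libraries left of control libraries and a bar at each group's mean. Groups are separate for 8 members, overlap for Sox7, and Sox17 had 0 counts in all 6 libraries.

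ERG and FLI1 are close relatives that keep endothelial genes switched on, and FLI1 also acts in platelet precursors. Fli1 had the largest change of the members. Its level, in CPM scaled by edgeR's TMM factors as are the CPM below unless stated otherwise, was 45.1, 48.3 and 61.6 CPM in the repletion libraries and 20.1, 17.8 and 15.8 CPM in the control libraries. The lowest repletion library was more than 2 times the highest control library. Fli1 (ENSMUSG00000016087, chromosome 9, 32422204 to 32542861, minus strand, GRCm38) averaged 51.7 ± 8.74 CPM in repletion and 17.9 ± 2.15 CPM in control libraries (SD, n = 3 each). The log2 fold change of 1.53 ± 0.15 (SE, edgeR adjusted p = 1.2e-06) is a 2.89-fold rise and lay above 95.5% of tested features. Erg (ENSMUSG00000040732, chromosome 16, 95359169 to 95586593, minus strand) had 99.1, 64.5 and 87.3 CPM in repletion libraries and 34.0, 39.1 and 47.5 CPM in control libraries. The groups were separate, and the second repletion library was the lowest of its group. Erg averaged 83.6 ± 17.6 CPM in repletion and 40.2 ± 6.81 CPM in control libraries (SD, n = 3 each), a log2 fold change of 1.06 ± 0.15 (edgeR adjusted p = 5.8e-05) or 2.08-fold.

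ELK3 and ETV6 are ETS factors known mainly as repressors: ELK3, also called Net, works with SRF at serum response elements, and ETV6 is needed for blood stem cells and vessels. Elk3 was the member with the smallest adjusted p. It had 172, 214 and 194 CPM in repletion libraries and 74.9, 77.4 and 76.3 CPM in control libraries. The control libraries lay close together, with an SD of 1.24 CPM, and all repletion libraries were far above them. Elk3 (ENSMUSG00000008398, chromosome 10, 93247414 to 93311135, minus strand) averaged 193 ± 21.2 CPM in repletion and 76.2 ± 1.24 CPM in control libraries (SD, n = 3 each), a log2 fold change of 1.34 ± 0.11 (edgeR adjusted p = 1.5e-07) or 2.54-fold. The Elk3 gene overlaps Cdk17, a kinase gene on the opposite strand, over 19658 bases, and the strand setting of the counting is not given in the sources used here. Cdk17 itself had a log2 fold change of 0.50 ± 0.11 (edgeR adjusted p = 0.00147). Etv6 (ENSMUSG00000030199, chromosome 6, 134035700 to 134270158, plus strand) had 63.0, 67.2 and 73.8 CPM in repletion libraries and 36.8, 40.1 and 39.8 CPM in control libraries. Its groups were separate, with means of 68.0 ± 5.41 CPM in repletion and 38.9 ± 1.85 CPM in control libraries (SD, n = 3 each). The log2 fold change of Etv6 was 0.81 ± 0.12 (edgeR adjusted p = 5.2e-05), or 1.75-fold.

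ETS1 and ETS2 are activators that MAP kinases switch on by phosphorylation, and ETS1 is known from sprouting endothelium. Both differed little between the groups beside the members above. Ets1 (ENSMUSG00000032035, chromosome 9, 32636221 to 32757820, plus strand) had 116, 118 and 126 CPM in repletion libraries and 91.3, 103 and 98.3 CPM in control libraries. Every repletion library was above every control library, by a narrow gap. The means were 120.2 ± 4.96 CPM in repletion and 97.4 ± 5.74 CPM in control libraries (SD, n = 3 each), a log2 fold change of 0.30 ± 0.10 (edgeR adjusted p = 0.0252). The call on Ets1 was lost in several alternatives, whose adjusted p ranged from 0.00934 to 0.200 over all 18. On leaving out repletion replicate 3 the log2 fold change was 0.26 (edgeR adjusted p = 0.117), and it was 0.24 (0.115), 0.32 (0.0530) and 0.30 (0.0849) on leaving out control replicate 1, 2 and 3. Ets1 is the longest member, with a deposited length of 8476 bases, and fell short of the threshold once a trend with length was removed (0.16, edgeR adjusted p = 0.200). Ets2 (ENSMUSG00000022895, chromosome 16, 95702075 to 95721051, plus strand) had 76.3, 77.7 and 88.9 CPM in repletion libraries and 63.9, 65.5 and 73.7 CPM in control libraries. Its log2 fold change was 0.26 ± 0.11 (edgeR adjusted p = 0.0767), past the threshold only when libraries were scaled by their totals alone (0.32, edgeR adjusted p = 0.0300, range over the alternatives 0.0300 to 0.315).

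These ETS genes lie in the genome as pairs that point away from each other. Fli1 and Ets1 are 93.4 kb apart on chromosome 9, with 2 features between them, none protein-coding. Erg and Ets2 are 115.5 kb apart on chromosome 16, with 0 features between them. In each pair the gene on the minus strand had the larger log2 fold change: 1.53 ± 0.15 for Fli1 beside 0.30 ± 0.10 for Ets1, and 1.06 ± 0.15 for Erg beside 0.26 ± 0.11 for Ets2 (SE). The difference between genes was not tested.

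The SOXF factors were uneven. SOX18, whose loss is known to disturb hair follicles and lymphatic vessels in the mouse, was the least abundant member with reads. Sox18 (ENSMUSG00000046470, chromosome 2, 181669836 to 181671640, minus strand) had 69, 74 and 110 counts in repletion libraries and 39, 34 and 21 counts in control libraries. Scaled by TMM these were 4.03, 4.66 and 6.59 CPM in repletion and 2.48, 2.16 and 1.21 CPM in control libraries. The groups were separate, but the values spread more than for any other member, with coefficients of variation of 26.2% in repletion and 33.9% in control libraries. The log2 fold change of Sox18 was 1.39 ± 0.35 (SE, edgeR adjusted p = 0.00459), or 2.61-fold, and its adjusted p stayed at or under 0.0444 over the 18 alternatives.

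SOX7 acts early in endothelial and blood precursors. Sox7 (ENSMUSG00000063060, chromosome 14, 63943673 to 63950732, plus strand) had 124, 165 and 157 CPM in repletion libraries and 109, 130 and 111 CPM in control libraries. The lowest repletion library lay below the highest control library. With means of 148 ± 21.9 CPM in repletion and 116 ± 11.5 CPM in control libraries (SD, n = 3 each), the log2 fold change was 0.35 ± 0.12 (edgeR adjusted p = 0.0284). The call on Sox7 was lost on leaving out repletion replicate 2 (0.26, edgeR adjusted p = 0.108) or 3 (0.30, 0.124) or control replicate 1 (0.29, 0.115) or 3 (0.30, 0.122), within a range of adjusted p over the alternatives of 0.00244 to 0.124. SOX17 is the SOXF factor known for arterial endothelium. Sox17 (ENSMUSG00000025902, chromosome 1, 4490931 to 4497354, minus strand) had 0 counts in all 6 libraries, which allows a level of up to 0.168 to 0.193 CPM of the unscaled library total (3 counts, counting error only).

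GATA2 is a GATA factor of endothelium and is known to drive endothelin. Gata2 (ENSMUSG00000015053, chromosome 6, 88193891 to 88207032, plus strand) had 80.5, 96.6 and 87.2 CPM in repletion libraries and 49.0, 51.3 and 51.8 CPM in control libraries. All repletion libraries were far above the control libraries, which lay within a few CPM of each other. The means were 88.1 ± 8.11 CPM in repletion and 50.7 ± 1.52 CPM in control libraries (SD, n = 3 each). The log2 fold change of Gata2 was 0.80 ± 0.11 (edgeR adjusted p = 3.9e-05), or 1.74-fold.

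Fli1, Sox18, Elk3, Erg, Etv6 and Gata2 passed the threshold in the same direction under all 18 alternatives. The authors' deposited table gave the same log2 fold changes to 2 decimals for the 9 tested members, with adjusted p-values of 7.93e-18 for Fli1 and 0.0968 for Ets2, and none for Sox17. No member had a near-identical copy elsewhere (95% identity over at least 30% of its longest transcript). Features that overlap Fli1, Ets1, Etv6 or Sox17 had at most 8 counts in any library, and Erg, Ets2, Gata2, Sox7 and Sox18 overlapped no other feature.

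**Figure D2:**
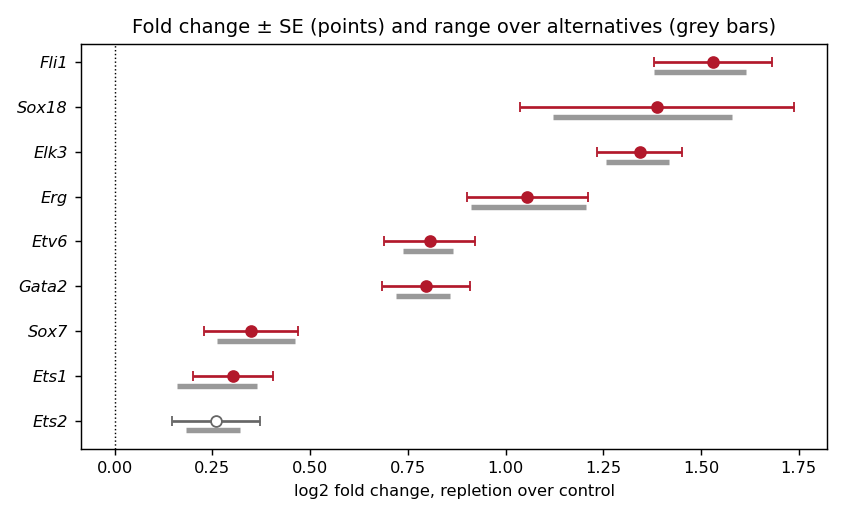
Log2 fold change of repletion over control for the 9 tested members, with SE; grey bars give the range over the fit and 18 alternatives, filled points passed the threshold and open points did not. Values run from 1.53 for Fli1 to 0.26 for Ets2, the open point.

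Longer features tended to be higher in the repletion libraries. Tested features were split by length into 5 equal classes. In the longest class (7132 to 123179 bases, with Ets1) the median log2 fold change was 0.19 and 35.4% were higher, and in the shortest class (57 to 1948 bases, with Sox18) the median was -0.14 and 10.7% were higher. Erg, Fli1, Elk3 and Sox7 lay in the middle class, with a median of -0.05 and 18.7% higher. Ets2, Etv6 and Gata2 lay in the next longer class, with a median of 0.04 and 22.8% higher. Length as a cause of the changes of the members was not tested.

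As CPM of the unscaled total per kilobase of feature length, Sox7 was the most abundant member in both groups. Its level was 45.8 ± 6.41 in repletion and 34.5 ± 3.82 in control libraries (SD, n = 3 each). In repletion libraries the order after it was Elk3 (43.3 ± 4.52), Erg (24.6 ± 5.31), Gata2 (16.6 ± 1.47), Fli1 (15.1 ± 2.39), Ets1 (14.5 ± 0.447), Ets2 (14.3 ± 1.06), Etv6 (11.6 ± 0.793) and Sox18 (3.20 ± 0.802). There Elk3 overlapped with Sox7, Gata2 with Fli1, Fli1 with Ets1 and Ets1 with Ets2, and the other neighbours were separate. In control libraries the order after Sox7 was Elk3 (16.4 ± 0.445), Ets2 (11.4 ± 0.873), Erg (11.3 ± 1.92), Ets1 (11.2 ± 0.779), Gata2 (9.19 ± 0.341), Etv6 (6.36 ± 0.357), Fli1 (5.02 ± 0.590) and Sox18 (1.18 ± 0.398). Among control libraries Ets2, Erg and Ets1 overlapped, and the other neighbours were separate. Fli1 thus stood among Gata2, Ets1 and Ets2 in repletion libraries and below Etv6 in control libraries. Elk3 lay above 91.5% of tested features in repletion and 76.1% in control libraries by this level, Fli1 above 74.0% and 47.2%, and Sox7 above 92.0% and 88.7%.

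**Figure D3:**
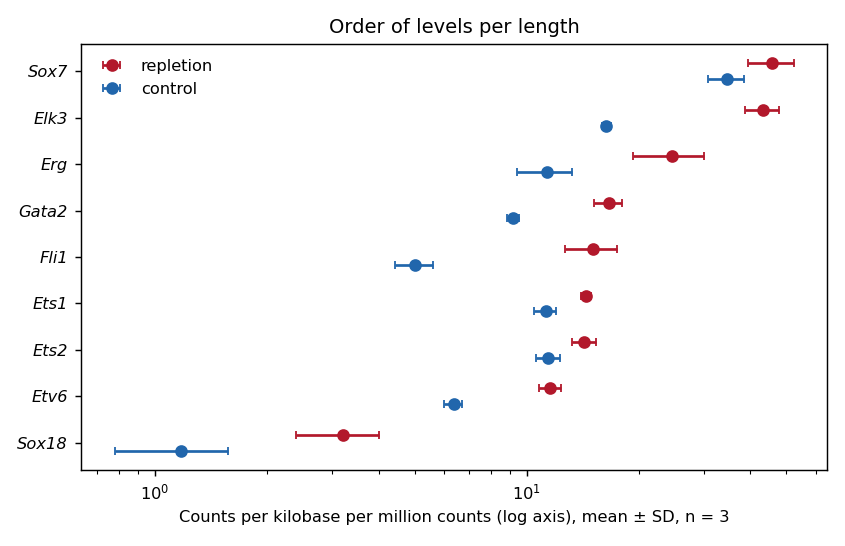
Level of each member in unscaled CPM per kilobase, on a log axis, in repletion and in control libraries. The mean of Fli1 lies below those of Etv6, Ets1 and Ets2 in control libraries and above them in repletion libraries. Sox7 has the highest mean in both groups, at 45.8 in repletion and 34.5 in control libraries.

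The libraries of a group did not vary alike for every member. Repletion replicate 1 was the lowest of its group in 8 of the 9 tested members, and Erg was the exception, where it was the highest. Control replicate 1 was the lowest of its group in 7 of 9, while Fli1 and Sox18 were lowest in control replicate 3. The share of all tested features that were lowest in these libraries is not given here. The counts are therefore not read as a trait of the members. Erg had coefficients of variation of 21.1% in repletion and 16.9% in control libraries, and Elk3 of 10.9% in repletion and 1.63% in control libraries.

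The genes whose centred log2 CPM profile over the 6 libraries lay closest to a member were sought among 9143 protein-coding genes. For Erg these were Dnajc11 (Euclidean distance 0.233), Mmp14 (0.255) and Trim56 (0.271), and the nearest member was Etv6 (0.647). For Sox18 they were Bach2 (0.389), Fli1 (0.563) and Zhx1 (0.594), so that Fli1 was among the closest of all genes compared. For Gata2 they were Dcun1d4 (0.105), Sf3b3 (0.113) and Smarcad1 (0.131), and the nearest member was Etv6 (0.205).

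Set against the rest of their families, the members held a larger share of the ETS transcripts after repletion. The 6 ETS members made up 53.2% ± 1.18 of the summed per-length level of all 26 ETS family genes in repletion and 38.4% ± 1.19 in control libraries (SD, n = 3 each). The summed level of the family on this scale was 232 ± 9.45 in repletion and 161 ± 10.1 in control libraries. The members contributed unevenly. Elk3, whose gene overlaps Cdk17, stood at 43.3 ± 4.52 in repletion and 16.4 ± 0.445 in control libraries. Ets1 stood at 14.5 ± 0.447 in repletion and 11.2 ± 0.779 in control libraries. Of the 20 other ETS genes 10 could be tested, of which 3 rose and 2 fell, shares near the 20.5% and 19.2% of all features, with a median log2 fold change of -0.04. Those that rose were Elf4 (0.55 ± 0.12, edgeR adjusted p = 0.0019), an ETS factor of quiescent and immune cells, Gabpa (0.53 ± 0.12, 0.0019), a regulator of mitochondrial genes, and Elf2 (0.31 ± 0.11, 0.028). Etv5, a target of FGF signalling, had 12.5, 14.8 and 13.8 CPM in repletion libraries and 24.6, 25.5 and 28.1 CPM in control libraries, and fell by 0.93 on the log2 scale (SE 0.15, edgeR adjusted p = 0.000136). Etv3, a repressor, had a log2 fold change of -0.34 ± 0.13 (edgeR adjusted p = 0.0392). Elf1, an ETS factor of blood and vessels, had 166.5 ± 14.0 CPM in repletion and 167.6 ± 6.33 CPM in control libraries (log2 fold change -0.01 ± 0.10, edgeR adjusted p = 0.952). Elf3, Etv2, Fev and Spic were at 0 counts in all libraries. Gabpa overlaps Atp5j, Elf2 overlaps 4930577N17Rik, and Etv5 has a near-identical copy, Gm4798, so reads could be shared.

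Of 17 other SOX genes 4 could be tested, and 3 rose and 0 fell (edgeR, with 0 lower also at an unadjusted p under 0.05 and by DESeq2 and limma-voom). Of all features 20.5% were higher and 19.2% were lower by the same rule. Sox6, a factor of muscle and red cell differentiation, had a log2 fold change of 1.12 ± 0.24 (edgeR adjusted p = 0.00137), Sox12 of 0.80 ± 0.17 (0.00116) and Sox4 of 0.35 ± 0.12 (0.0322). Sox4 and Sox12 are SOXC factors, and Sox4 has a near-identical copy, Gm26735. Within SOXF, Sox7 made up 93.5% ± 1.24 of the summed per-length level in repletion and 96.7% ± 1.13 in control libraries (SD, n = 3 each). Of 9 other GATA family genes 4 could be tested, with 0 higher by edgeR (0 also at an unadjusted p under 0.05, and by DESeq2 and limma-voom) and 1 lower. With 4 genes, these counts do not set the GATA family apart from all features. Gatad1, a chromatin protein with a GATA zinc finger, had a log2 fold change of -0.34 ± 0.11 (edgeR adjusted p = 0.0186). Gata6, a GATA factor of lung and vessels, had 0 counts in all libraries, and Gata2 made up 85.0% ± 3.34 of the per-length level of Gata1 to Gata6 in repletion and 79.8% ± 4.49 in control libraries. Several of these small changes lost their call with fewer libraries. The call on Elf2 was lost without repletion replicate 1 or 3 or any control replicate (0.26 to 0.32), and its log2 fold change was 0.12 with the length trend removed (edgeR adjusted p = 0.364, range over the alternatives 0.0103 to 0.364). The call on Etv3 was lost without repletion replicate 2 or 3 or any control replicate (-0.40 to -0.32), that on Sox4 without repletion replicate 1 or any control replicate (0.20 to 0.37), and that on Gatad1 without repletion replicate 3 (-0.30) or control replicate 1 (-0.26).

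**Figure D4:**
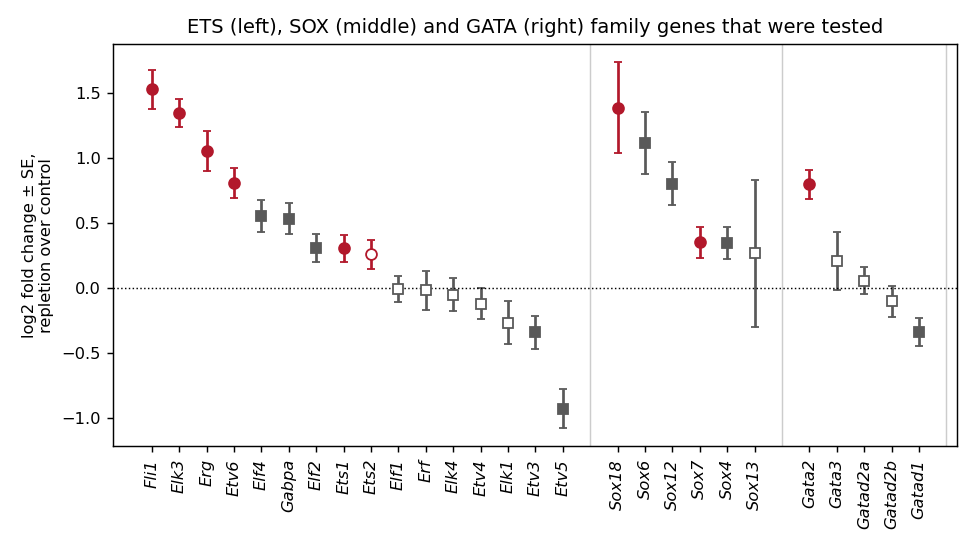
Log2 fold change of repletion over control, with SE, for all tested ETS, SOX and GATA family genes; red circles are the members, grey squares the other genes, filled points passed the threshold and open points did not. Members lie between 0.26 and 1.53, while other ETS genes lie on both sides of 0, with Etv5 lowest at -0.93.

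Of 30 genes for partners and cofactors of these factors 28 could be tested, with a median log2 fold change of 0.34. Of these 14 rose and 1 fell, against 20.5% and 19.2% of all features. With the length trend removed 10 of them rose, while the rises among all features went from 2830 to 2621. Tcf4, an E protein that pairs with TAL1, had 158, 185 and 168 CPM in repletion libraries and 86.1, 79.6 and 84.9 CPM in control libraries (log2 fold change 1.03 ± 0.10, edgeR adjusted p = 1.6e-06). The log2 fold change of Tcf4, a feature of 27382 bases, ranged from 0.50 to 1.09 over the 18 alternatives. Lyl1, a close relative of TAL1 whose gene overlaps Nfix, had a log2 fold change of 1.19 ± 0.27 (edgeR adjusted p = 0.00252). Rises were also called for Gabpb2, a partner of GABPA (0.93 ± 0.13, edgeR adjusted p = 2.4e-05), Zfpm2, a GATA cofactor (0.89 ± 0.11, 1.5e-05), and Runx1, a blood and endothelial factor (0.82 ± 0.12, 5.5e-05). Tal1 had 125, 176 and 163 CPM in repletion libraries and 133, 111 and 115 CPM in control libraries, with groups that overlapped (0.37 ± 0.13, edgeR adjusted p = 0.0249). The call on Tal1 was lost on leaving out repletion replicate 2 (0.27) or 3 (0.33) or control replicate 2 (0.30) or 3 (0.34). Lmo2, which bridges TAL1 and GATA2, had 10.4 ± 2.68 CPM in repletion and 9.19 ± 0.976 CPM in control libraries (0.17 ± 0.22, edgeR adjusted p = 0.56). The 1 partner that fell was Jun, an AP-1 subunit named here after its value was seen, with overlapping groups (-0.44 ± 0.15, edgeR adjusted p = 0.0281). The call on Jun was lost on leaving out repletion replicate 2 (-0.34) or 3 (-0.31) or control replicate 1 (-0.44) or 2 (-0.43), with library size only (-0.38) and with the length trend removed (-0.37).

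Endothelial genes listed from general knowledge as bound or regulated by ETS, SOXF or GATA2 factors moved in both directions. Of 60 such genes 53 could be tested, and 24 rose and 10 fell, against 20.5% and 19.2% of all features. Tal1 and Lmo2 were counted here as well as among the partners, and the median log2 fold change of the list was 0.28. Of the list 6 genes fell when repletion replicate 3 or control replicate 3 was left out. Over all features 2019 and 1977 fell in these 2 settings, against 2654 with all libraries. Edn1, which encodes endothelin, a vasoconstrictor peptide, had 29.3, 36.5 and 46.6 CPM in repletion libraries and 12.6, 9.26 and 6.80 CPM in control libraries. The groups were separate, and the log2 fold change was 1.97 ± 0.21 (edgeR adjusted p = 2.5e-06), or 3.93-fold. Rhoj, an endothelial small GTPase, rose by 1.40 ± 0.16 on the log2 scale (edgeR adjusted p = 6.1e-06), and Nr2f2, the venous factor COUP-TFII, whose gene overlaps B130024G19Rik, by 1.18 ± 0.11 (9.9e-07). Nrp1, a VEGF and semaphorin co-receptor, rose by 1.29 ± 0.23 (edgeR adjusted p = 0.000317). Clec14a, an endothelial lectin at low counts (78, 111 and 108 in repletion and 38, 6 and 32 in control libraries), rose by 1.95 ± 0.43 (edgeR adjusted p = 0.00189). Robo4 (0.63 ± 0.11, edgeR adjusted p = 0.000229) and the angiopoietin receptor gene Tek (0.58 ± 0.14, 0.00348) also rose.

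Among the genes that fell, Angpt2, the TEK ligand stored in Weibel-Palade bodies, had 105, 58.1 and 71.5 CPM in repletion libraries and 122, 172 and 165 CPM in control libraries (log2 fold change -0.97 ± 0.17, edgeR adjusted p = 0.000325). Angpt2 overlaps the gene Mcph1, so reads could be shared. Vcam1, a leukocyte adhesion receptor, had a log2 fold change of -0.59 ± 0.10 (edgeR adjusted p = 0.000139), Nrp2, a lymphatic co-receptor that overlaps Gm37121, of -0.51 ± 0.11 (0.00163), and Esam, a junction protein, of -0.46 ± 0.11 (0.0034). Vwf, the von Willebrand factor gene, had 15.5, 15.5 and 15.3 CPM in repletion libraries and 17.4, 21.1 and 24.5 CPM in control libraries (log2 fold change -0.45 ± 0.16, edgeR adjusted p = 0.0365). Its call was lost on leaving out repletion replicate 2 (-0.46) or 3 (-0.44) or control replicate 2 (-0.46) or 3 (-0.33), and with library size only (-0.38).

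Several of the best known targets missed the threshold. Cdh5, the junction cadherin that ERG is known to maintain, had 537.5 ± 72.9 CPM in repletion and 577.5 ± 72.4 CPM in control libraries (log2 fold change -0.10 ± 0.12, edgeR adjusted p = 0.517). Pecam1 averaged 749 ± 77.7 CPM in repletion and 749 ± 47.4 CPM in control libraries (0.00 ± 0.10, edgeR adjusted p = 0.994). The receptor genes Kdr (0.07 ± 0.11, edgeR adjusted p = 0.649) and Tie1 (-0.11 ± 0.10, 0.396) and the nitric oxide synthase gene Nos3 (0.01 ± 0.11, 0.935), which overlaps Atg9b, missed it as well. Beside log2 fold changes of 1.53 for Fli1 and 1.06 for Erg, these 5 genes lay close to 0. Other well known genes of the list rose, 3 of them named here after their values were seen. These were Icam2 (1.14 ± 0.14, edgeR adjusted p = 1.1e-05), Flt1 (0.93 ± 0.23, 0.0035) and Eng (0.69 ± 0.12, 0.00033), which overlaps Fpgs. Of the 53 tested genes of the list 24 rose, 10 fell and 19 did not pass. Which of the genes the factors bind in these cells was not measured.

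**Figure D5:**
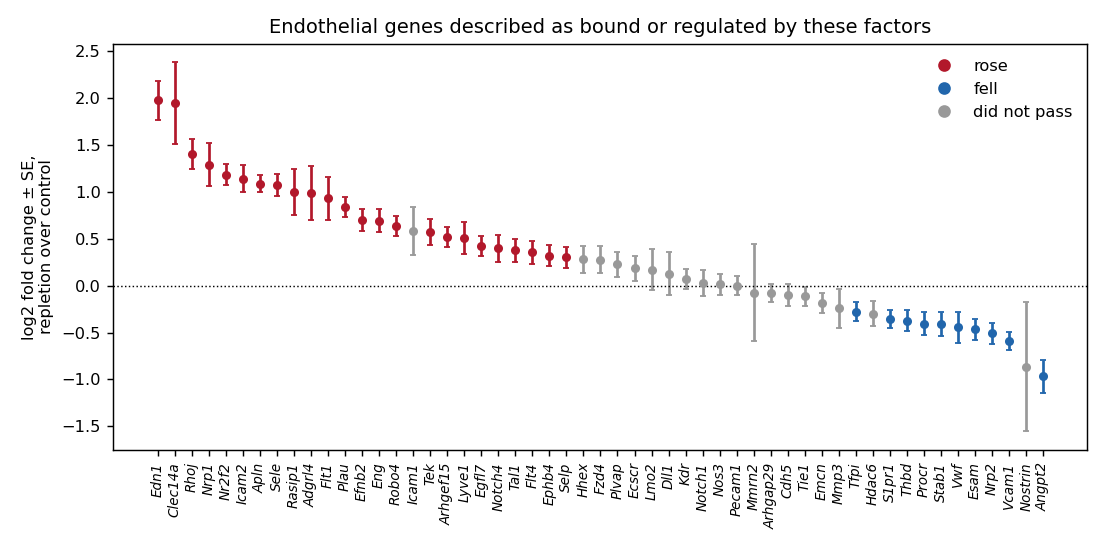
Log2 fold change of repletion over control, with SE, for the 53 tested endothelial genes described as bound or regulated by the factors; red points rose (24), blue points fell (10) and grey points did not pass the threshold. Edn1 stands at 1.97 at the high end and Angpt2 at -0.97 at the low end.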

How the data were processed

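RNA was sequenced from 3 repletion and 3 control samples of MPVECs, grouped by title. The deposited counts are whole reads per feature, per the file headers. HISAT2 2.0.5, featureCounts 1.5.0-p3, DESeq2 1.20.0 and GRCm38.p6 are named, per the submitters' processing notes, without their roles. The deposited log2 fold changes and p-values were the authors' and run repletion over control, by their sign against the counts for 100% of called features. The deposited FPKM and the group mean signal, scaled by the authors, were used for no test. Features without a gene name held 0.133% to 0.208% of counts.

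Features were kept by filterByExpr, which left 13804 and removed 41428. Counts were scaled by TMM and tested with edgeR 4.0.16 (quasi-likelihood, two-sided, Benjamini-Hochberg, threshold 0.05) in R 4.3.3, after a check on simulated data. SE came from the F statistic. Copies were sought with BLAST 2.17.0, and some overlaps between genes are not reported here. Alternatives were other scalings, DESeq2 1.42.0, limma 3.58.1, other filters, a replicate block, removal of length and GC trends, and leaving out each library. Libraries of a group varied by 14.1% (edgeR's common biological coefficient of variation).

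The members and lists were chosen with earlier results of these data known. Named genes were all members, the 5 largest rises and falls per list past the threshold with mean log2 CPM of at least 1 and separate groups, and 16 fixed genes. The 5 other gene lists came from general knowledge.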

Additional observations from a re-analysis of the deposited data

How the results depend on the processing

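The counts of calls and the log2 fold changes of members and named list genes were recomputed under 18 alternatives, of which the removal of a joint length and GC trend and of features without a gene name were chosen after seeing the data. The number of members that rose was 6 to 9, against 8, and was 0 for members that fell in every alternative. Over all features 2195 to 3214 rose in the alternatives, against 2830. Fli1, Sox18, Elk3, Erg, Etv6 and Gata2 kept their calls in all 18. Ets1 missed the threshold with no filter (log2 fold change 0.27), with the replicate block (0.30), with the length trend removed (0.16) or the length and GC trend removed (0.16), and ranged from 0.24 to 0.32 when 1 library was left out. Ets2 passed it with library size only (0.32). Sox7 ranged from 0.26 to 0.46 when 1 library was left out. Of the genes in the other family, partner and target lists, 14 fell, against 9 with library size only and 7 to 14 when 1 library was left out (7 without repletion replicate 3, 9 without repletion replicate 2 or control replicate 2 or 3). Over all features 2199 fell with library size only and 1977 to 2745 when 1 library was left out, against 2654. With the replicate block the calls on Elf2 (0.31), Etv3 (-0.34), Sox4 (0.34), Tal1 (0.37) and Vwf (-0.43) were lost, with library size only those on Etv3 (-0.28), Vwf (-0.38) and Jun (-0.38), and with no filter those on Elf2 (0.27) and Sox4 (0.31). With the length trend removed, or the length and GC trend, 2 other GATA family genes fell, against 1. No called value changed its sign, but values near 0 that missed the threshold did (Pecam1, Kdr, Nos3, Elf1 and Lmo2). Scaling by library size only moved the median log2 fold change of all features to 0.06, and omitting the filter moved it to 0.13. Same-numbered libraries of the groups did not deviate together (correlations of -0.08, -0.03 and 0.06), so the numbers were not read as pairs. With the replicate block 2485 features rose and 2353 fell, against 2830 and 2654. For Sox18, Clec14a and Lyl1, low counts limit the precision, and Sox17 was not detectable at this depth.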
